A study of Mus musculus with 18 samples.

Results

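The genes described here are 9 cytokine genes that eosinophils are known for: *Il4*, *Il13* and *Il5*, which encode the classical type 2 cytokines, the colony-stimulating factors *Csf1* and *Csf2*, the inflammatory cytokines *Il6* and *Tnf*, and the regulatory cytokines *Il10* and *Il16*. They were chosen by gene name from the deposited expression table and make up 9 of its 22708 genes. Bulk RNA was sequenced from eosinophils of the small intestine of C57BL/6 mice, gated as CD11b+MHC-II-SiglecF+SSChi, in 18 samples. There were 6 wildtype samples (WT), 6 labelled Ahr-KO, from mice without the aryl hydrocarbon receptor (AHR), and 6 labelled Ahrr-KO after *Ahrr*, which encodes a repressor of AHR. Each genotype had 3 samples from males and 3 from females, named M1 to M3 and F1 to F3 below. No treatment is given for any of these mice, and the study used mice of 6 to 14 wk. Both knockouts are labelled by genotype only, with no cell type to which the loss was limited, and according to the methods the Ahr-/- and WT mice were neither littermates nor cohoused, so genotype and housing cannot be told apart. The study describes its samples as coming from separate mice, but its text does not mention the mice labelled Ahrr-KO.

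Eosinophils are granulocytes that develop in the bone marrow under IL-5 and settle in the intestinal lamina propria in health. They store ready-made cytokines in their granules, IL-4 above all, and can release them within minutes, so that the mRNA of a cytokine and its release are separate quantities. AHR is a ligand-dependent transcription factor that responds to small molecules from diet, microbes and tryptophan metabolism, and it drives its own repressor gene *Ahrr* as well as *Cyp1b1* and *Tiparp*.

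Values are the variance-stabilized expression of the deposited table, on a log2 scale whose lowest value stands for a count of 0. This scale shrinks the differences of genes with few counts. Libraries held 3842977 to 8149200 counts in WT, 6581818 to 10284124 in Ahr-KO and 8788867 to 12046933 in Ahrr-KO. Female sample F3 of WT was the shallowest and had a count for 20244 genes, and F3 of Ahr-KO had one for 19694 genes, whereas the other 16 samples had one for 15146 to 17236 genes. These 2 libraries stood apart in that respect, and the cytokine call that was lost without them is named below.

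The targeted genes were looked at first. *Ahr* ranged from 13.40 to 14.40 in WT (median 13.76), from 14.15 to 14.67 in Ahr-KO (median 14.55) and from 13.03 to 14.42 in Ahrr-KO (median 13.51), so that it was not low in the samples labelled Ahr-KO. *Ahrr* ranged from 9.79 to 10.39 in WT (median 10.12) and from 9.95 to 10.93 in Ahrr-KO (median 10.37), so that it was not low in the samples labelled Ahrr-KO either. The table gives 1 value per gene over its whole transcript, and the sources used here do not say which part of either gene was removed, so these values check neither label. *Ahrr* had 0 to 10 counts in each of the 6 Ahr-KO samples against 550 to 1024 in WT, and *Cyp1b1* had 1 to 5 against 218 to 917. *Tiparp*, a further AHR target, was lower in all 6 Ahr-KO samples than in any WT sample, by -2.60 ± 0.18 (SE, adjusted p = 1.56e-07 by limma). The Ahr-KO samples thus stood apart from WT in the genes that AHR drives, whereas no value here set the samples labelled Ahrr-KO apart in the same way.

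Genes of the gate were looked at next. *Siglecf* lay between 9.81 and 11.63 and *Itgam*, which encodes CD11b, between 13.05 and 14.45 over the 18 samples. The MHC-II gene *H2-Aa* had means of 490, 701 and 1073 normalized counts in WT, Ahr-KO and Ahrr-KO, and 2338 in Ahrr-KO M2, so the MHC-II-negative side of the gate is not seen in these values. *Epx*, which encodes the eosinophil peroxidase of the granules, had only 4 to 22 counts per sample, whereas the eosinophil genes *Ccr3* (13.63 in Ahr-KO and 13.59 in WT, group means) and *Alox15* (14.60 and 14.02) were high.

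Per kilobase of exon, *Csf1* (294 ± 103 normalized counts per kb, mean ± SD, n = 6) and *Il4* (269 ± 28.0) had the highest levels of the 9 genes in WT, and their samples overlapped. *Il16* (121 ± 6.84), *Il6* (98.0 ± 114) and *Tnf* (51.4 ± 45.6 normalized counts per kb) followed, and in this order each overlapped the next. The remaining genes were *Il13* at 9.83, *Il10* at 3.27 and *Il5* at 1.12 normalized counts per kb, and *Csf2* at 0. In Ahr-KO, *Il4* (440 ± 109) and *Il6* (329 ± 333) stood first by their means and *Csf1* (120 ± 50.4 normalized counts per kb) came after *Il16* (124 ± 22.4). In this order too, the samples of each gene overlapped those of the next. The order in the samples labelled Ahrr-KO was that of WT for the 7 genes with the highest levels. Levels of *Il4* and *Csf1* mRNA in the sorted cells were above those of *Il13* and *Il5* in all samples of the 3 genotypes. The length used was that of all annotated exons of a gene together, which is 7865 bases for *Il16*, and a level per kb depends on which transcripts are made.

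**Figure D1:**
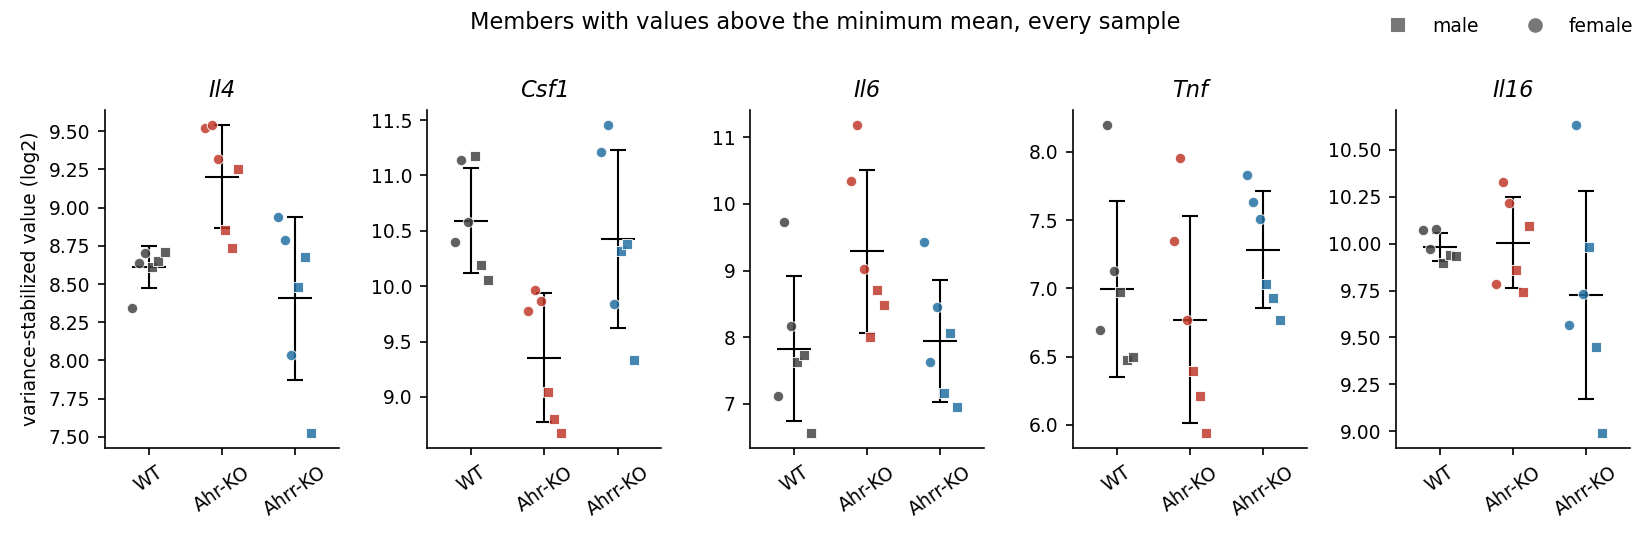
Variance-stabilized values (log2, vertical axes that do not start at 0) of the 5 genes above the minimum mean in each of the 18 samples, by genotype, with squares for males and circles for females, and the mean and SD of 6 samples in black. All Ahr-KO samples lie above all WT samples for *Il4* (8.73 and more against 8.71 and less) and below them for *Csf1* (9.97 and less against 10.05 and more).

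In the comparison of WT with Ahr-KO, which asks what the loss of AHR does to eosinophils, *Il4* and *Il6* were higher and *Csf1* was lower in Ahr-KO, while *Tnf* and *Il16* were not called. A gene was called at an adjusted p below 0.05 (limma with sex in the model, Benjamini-Hochberg over all 11346 genes tested). Of the 9 cytokine genes 5 had a mean at least 1 above the lowest value and were tested, and 3 of these 5 were called, where 8.84% of all genes tested were. By direction, 2 of 5 were higher in Ahr-KO, against 5.16% of all genes, and 1 was higher in WT, against 3.68%. For 2 of the 5, *Il4* and *Csf1*, the samples of the 2 genotypes did not overlap, as held for 4.51% of all genes tested. In bulk RNA, fewer cells that make a cytokine and less of its mRNA per cell cannot be told apart.

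IL-4 drives type 2 helper cells, alternative activation of macrophages and class switching to IgE. *Il4* lies on the minus strand of chr11:53612460-53618665. It ranged from 8.35 to 8.71 in WT (median 8.64), from 8.73 to 9.54 in Ahr-KO (median 9.28) and from 7.52 to 8.94 in Ahrr-KO (median 8.58). Every Ahr-KO sample was above every WT sample, with the Ahr-KO females F1, F2 and F3 at the top, and the samples labelled Ahrr-KO overlapped WT, with F1 and F2 above its range and M3 and F3 below it. *Il4* was 1.64-fold higher in Ahr-KO than in WT, at 539 ± 133 against 330 ± 34.3 normalized counts (SD, n = 6 each). The difference was 0.59 ± 0.13 on the log2 scale (SE, adjusted p = 0.00970 by limma), and the call was lost when all 18 samples entered the fit (adjusted p = 0.0813), whereas with any 1 sample left out the adjusted p lay between 0.00470 and 0.0333.

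CSF1, also called M-CSF, is the growth factor on which macrophages depend. *Csf1* lies on the minus strand of chr3:107741048-107760469. WT samples ranged from 10.05 to 11.18 (median 10.49), Ahr-KO samples from 8.68 to 9.97 (median 9.41) and Ahrr-KO samples from 9.33 to 11.45 (median 10.35). All 6 Ahr-KO samples were below all 6 WT samples, and within Ahr-KO the 3 males (8.68 to 9.04) were below the 3 females (9.78 to 9.97). The mean was 2.44-fold lower in Ahr-KO, at 636 ± 266 against 1551 ± 545 normalized counts (SD, n = 6 each). The difference of -1.24 ± 0.20 (SE, adjusted p = 0.000855 by limma) was called in all 22 alternative fits, with adjusted p between 0.000199 and 0.00663.

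IL-6 is an inflammatory cytokine of the acute phase response that also acts on B and T cells. *Il6* lies on the plus strand of chr5:30013114-30019975. It ranged from 40.6 to 787 normalized counts in WT, from 195 to 2264 in Ahr-KO and from 67.5 to 629 in Ahrr-KO, with medians of 7.68, 8.86 and 7.84 on the log2 scale. The groups overlapped: WT F2 at 9.73 was above 4 of the 6 Ahr-KO samples, and Ahr-KO F2 (11.19) and F1 (10.34) were the highest of all 18. The mean was 3.36-fold higher in Ahr-KO, at 800 ± 809 against 238 ± 276 normalized counts (SD, n = 6 each), and all 6 Ahr-KO samples were above the WT mean on the log2 scale. The difference of 1.46 ± 0.40 (SE) passed the threshold narrowly (adjusted p = 0.0334 by limma). It did not pass it without a minimum mean (adjusted p = 0.0732), without sex in the model (0.108) or without the F3 libraries of both genotypes that stood apart (0.0541). The call was also lost without WT F3 (adjusted p = 0.0803 by limma), WT M3 (0.0759), or Ahr-KO F1 (0.0830), F2 (0.0810), M2 (0.0614) or M3 (0.0625), while the difference stayed between 1.15 and 1.73 with any 1 of the 12 samples left out.

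TNF is a membrane-bound inflammatory cytokine that is shed from the cell surface. *Tnf* lies on the minus strand of chr17:35199367-35202007. Its values ran from 6.47 to 8.20 in WT (median 6.83), from 5.94 to 7.95 in Ahr-KO (median 6.58) and from 6.77 to 7.83 in Ahrr-KO (median 7.27). All groups overlapped, with WT F2 highest and Ahr-KO M3 lowest of the 18 samples. The difference between Ahr-KO and WT was -0.22 ± 0.24 (SE, 95% interval -0.74 to 0.29, adjusted p = 0.616 by limma).

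IL-16 attracts CD4-bearing cells and is made as a larger precursor. *Il16* lies on the minus strand of chr7:83642819-83746028, and the annotation places *Stard5* and other transcripts within its span. Its range was 9.90 to 10.08 in WT (median 9.96), 9.74 to 10.33 in Ahr-KO (median 9.98) and 8.99 to 10.63 in Ahrr-KO (median 9.65). The WT samples lay close together inside the range of both other groups. The difference between Ahr-KO and WT was 0.02 ± 0.10 (SE, 95% interval -0.20 to 0.24, adjusted p = 0.926 by limma), which makes it the smallest of the 5.

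*Il13*, *Il5*, *Il10* and *Csf2* fell below the minimum mean in every comparison and are given by their counts. *Il13*, which lies 12.7 kb from *Il4* on the same strand and encodes the cytokine that drives mucus production, had a count in all 18 samples, from 1 to 17 in WT, from 4 to 32 in Ahr-KO and from 7 to 13 in Ahrr-KO. Relative to depth, WT F2 (27.2 normalized counts), Ahr-KO F1 (26.8) and Ahr-KO F2 (21.1) were the highest, and the groups overlapped. *Il5*, the growth factor of eosinophils, had 5 counts in WT, all in F3, 13 in 4 Ahr-KO samples and 1 in Ahrr-KO. *Il10*, whose product restrains inflammation, had 15 counts in 2 WT samples (9 of them in F3), 21 in 5 Ahr-KO samples (13 of them in F3) and 12 in 4 Ahrr-KO samples. Most of the *Il10* counts of WT and Ahr-KO thus came from the 2 libraries that stood apart. *Csf2*, which encodes GM-CSF, had 0 of 35853331 counts in WT, where a floor of 3 counts stands for 0.0837 CPM, 6 in Ahr-KO and 6 in Ahrr-KO. These limits cover counting error only, and none of the 4 genes was called. Without a minimum mean, their differences between Ahr-KO and WT lay between -0.03 for *Il13* and 0.16 for *Il5* on the log2 scale, with adjusted p between 0.610 and 0.965 by limma. *Il5* differed by 0.26 between Ahr-KO and Ahrr-KO (95% interval 0.04 to 0.48, unadjusted p = 0.0214, adjusted p = 0.143), with 4 of 6 Ahr-KO samples on that side. *Il5* and *Csf2* each overlap a predicted gene in the annotation, from which their few counts cannot be separated without knowing the strand.

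**Figure D2:**
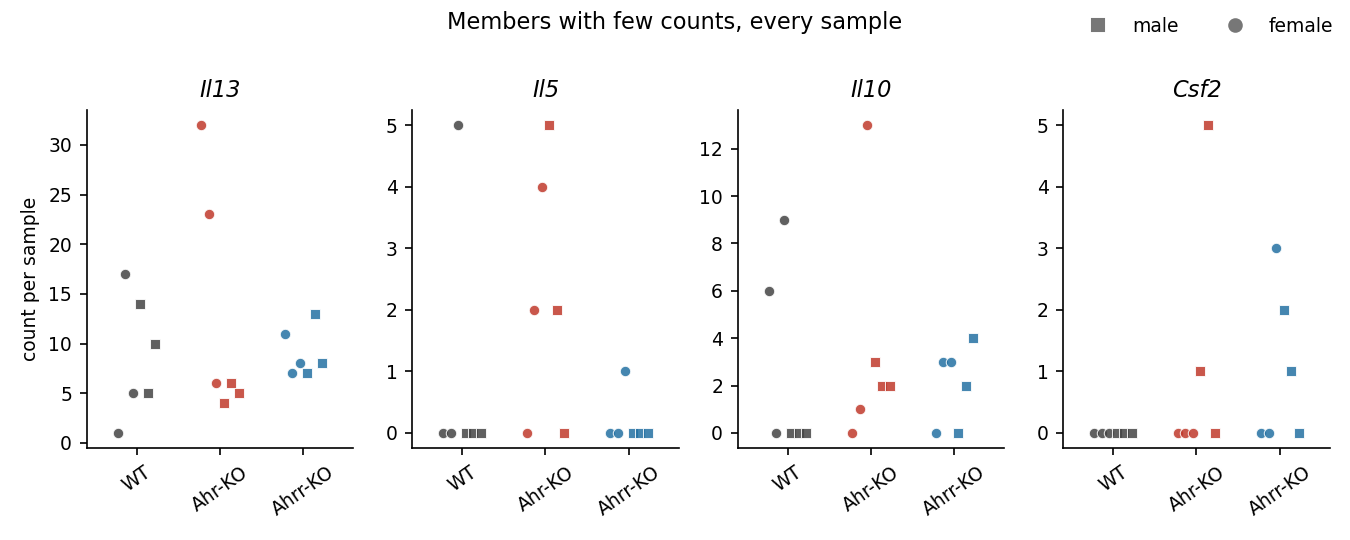
Counts per sample of the 4 genes below the minimum mean, by genotype, with squares for males and circles for females. *Il13* reaches 32 counts in Ahr-KO F1, *Il10* 13 in Ahr-KO F3, and *Csf2* is at 0 in all 6 WT samples.

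The start regions of *Il4*, *Csf1*, *Il6* and *Tnf* are shown because these are the members that differed between genotypes or sexes. Each sequence covers 250 bases before and 50 bases after the annotated start (RefSeq, GRCm38.p6) and runs 5′ to 3′ on the strand of the gene, at chr11:53618616-53618915 (minus), chr3:107760420-107760719 (minus), chr5:30012864-30013163 (plus) and chr17:35201958-35202257 (minus). Capitals mark matches, on either strand, to any of 7 short motifs.
Il4: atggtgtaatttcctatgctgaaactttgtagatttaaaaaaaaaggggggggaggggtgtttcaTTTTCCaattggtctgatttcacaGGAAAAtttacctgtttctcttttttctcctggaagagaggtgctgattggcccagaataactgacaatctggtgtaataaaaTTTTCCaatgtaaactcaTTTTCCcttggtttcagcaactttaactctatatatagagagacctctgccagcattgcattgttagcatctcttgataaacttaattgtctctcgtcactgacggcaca
Csf1: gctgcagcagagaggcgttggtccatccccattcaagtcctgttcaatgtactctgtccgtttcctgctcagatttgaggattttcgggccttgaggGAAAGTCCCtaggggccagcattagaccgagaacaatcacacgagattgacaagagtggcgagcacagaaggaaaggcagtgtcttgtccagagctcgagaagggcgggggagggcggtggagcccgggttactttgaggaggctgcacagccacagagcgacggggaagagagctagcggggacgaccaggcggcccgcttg
Il6: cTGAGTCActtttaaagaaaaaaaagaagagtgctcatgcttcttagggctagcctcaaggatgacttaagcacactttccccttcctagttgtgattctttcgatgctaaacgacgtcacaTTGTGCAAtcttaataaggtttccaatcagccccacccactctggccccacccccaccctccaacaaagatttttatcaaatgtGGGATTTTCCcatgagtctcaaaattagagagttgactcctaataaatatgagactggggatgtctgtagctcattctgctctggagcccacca
Tnf: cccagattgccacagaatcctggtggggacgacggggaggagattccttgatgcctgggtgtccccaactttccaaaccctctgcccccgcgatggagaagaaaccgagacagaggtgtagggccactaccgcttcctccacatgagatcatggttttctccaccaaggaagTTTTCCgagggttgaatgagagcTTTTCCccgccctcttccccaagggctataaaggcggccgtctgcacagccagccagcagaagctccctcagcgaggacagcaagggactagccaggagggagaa

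The motifs were the core of the AHR response element GCGTG, the NF-kB-type site GGGANTTTC, the AP-1 site TGANTCA, the C/EBP-type site TTGNNCAA, the STAT site TTCNNNGAA, the NFAT core GGAAAA and the GATA site AGATAA, where N is any base. Of 32851 windows of this length, 32.4% held the AHR core, 1.11% the NF-kB-type site, 7.81% the AP-1 site and 6.4% the C/EBP-type site. The STAT site was found in 8.3%, the NFAT core in 23.4% and the GATA site in 11.2%. The *Il4* window printed, at the outermost start, held 4 matches to the NFAT core, at -185, -161, -78 and -60 from the start, and none to the other motifs, while the window of a further *Il4* start, chr11:53617289-53617588, held a STAT site at -4 and no NFAT core. The *Il6* window held an AP-1 site at -249, a C/EBP-type site at -128 and an NF-kB-type site at -44 that overlaps an NFAT core at -40. The *Csf1* window held an NF-kB-type site at -153, and the *Tnf* window held NFAT cores at -78 and -55. The AHR core was in none of these 4 windows, and among the 11 windows found for 8 of the 9 genes it was in 2, both of *Il16*, whose mRNA did not pass the test. A match is a stretch of letters and not evidence of binding, and these windows hold no distant elements.

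In the comparison of WT with the samples labelled Ahrr-KO, which shares its WT samples with the comparison above, none of the 5 cytokine genes tested was called by limma, against 0.0779% of 11546 genes (9 genes, all higher in Ahrr-KO). None of the 5 had an unadjusted p below 0.05 either, as 853 of all genes had, and voom called none of them and 4 genes in all. The differences, Ahrr-KO minus WT, were -0.20 for *Il4* (95% interval -0.65 to 0.24), -0.17 for *Csf1* (-0.81 to 0.48) and 0.12 for *Il6* (-0.74 to 0.98). They were 0.29 for *Tnf* (95% interval -0.16 to 0.74) and -0.26 for *Il16* (-0.68 to 0.16), with adjusted p between 0.707 and 0.930 by limma. The intervals of *Csf1* and *Il6* were wide, and differences within them could not be told from 0. The lowest values of *Il4* and *Il16* in all 18 samples were those of Ahrr-KO M3, in which the summed eosinophil markers were lowest (14322 normalized counts) and the summed epithelial markers highest (34019). Their part in these values was not tested.

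Between Ahr-KO and the samples labelled Ahrr-KO, the same 3 cytokine genes were called as between Ahr-KO and WT, which share the Ahr-KO samples: 3 of 5, against 14.9% of 11474 genes. Again 2 of 5 were higher in Ahr-KO, against 6.84%, and 1 was higher in Ahrr-KO, against 8.04%. None of the 5 had groups that did not overlap, which held for 4.61% of all genes. *Il4* differed by 0.80 ± 0.20 (SE, adjusted p = 0.0191 by limma), *Csf1* by -1.07 ± 0.24 (0.0128) and *Il6* by 1.34 ± 0.36 (0.0240), each as Ahr-KO minus Ahrr-KO, and for all 3 genes the 6 Ahr-KO samples lay on 1 side of the Ahrr-KO mean. *Tnf* (-0.51 ± 0.18, adjusted p = 0.0635) and *Il16* (0.28 ± 0.20, 0.354) were not called by limma. Without Ahr-KO M3 *Il4* was no longer called (0.74, adjusted p = 0.0525), and without Ahr-KO F2 *Tnf* was (-0.67, 0.0138). *Il6* lost its call without Ahr-KO F1 (adjusted p = 0.0575 by limma), F2 (0.0532), M2 (0.0536) or M3 (0.0518) or Ahrr-KO M3 (0.0545). Without sex in the model, *Il6* (adjusted p = 0.107) and *Csf1* (0.0638) were not called.

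**Figure D3:**
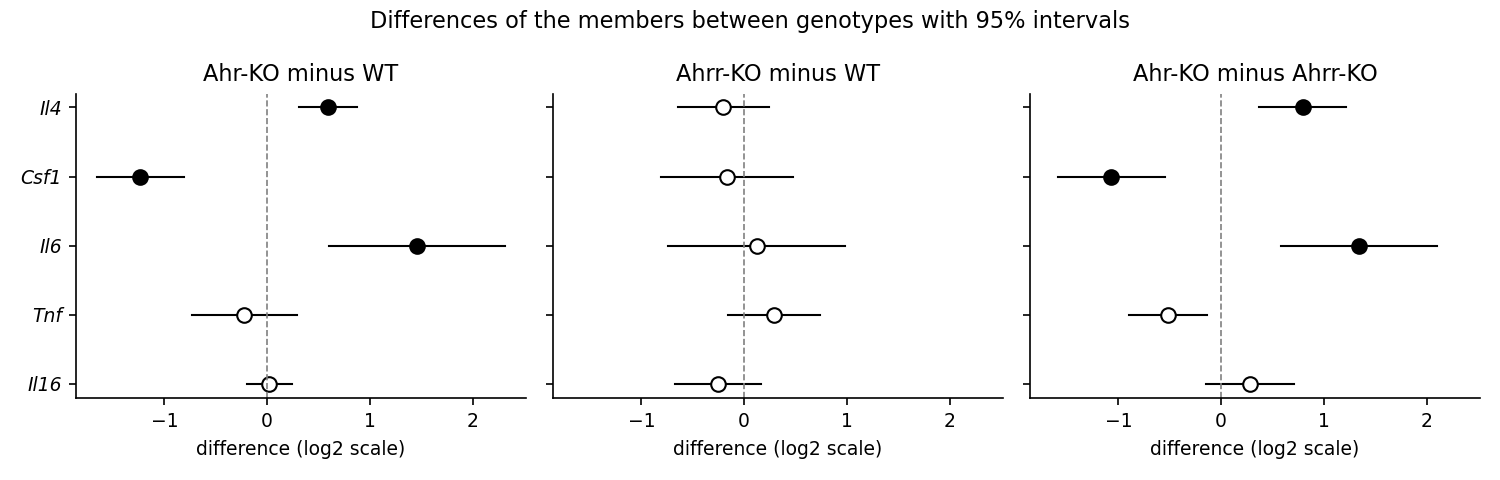
Differences of the 5 tested genes on the log2 scale (horizontal axes) in the 3 genotype comparisons, with 95% intervals from limma; filled circles were called at an adjusted p below 0.05. *Il4*, *Csf1* and *Il6* are called in both comparisons that involve Ahr-KO (0.59, -1.24 and 1.46 against WT) and none is called between Ahrr-KO and WT; the comparisons share samples.

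The sexes differed in the inflammatory cytokines. Over all 18 samples with genotype in the model, *Tnf* and *Il6* were higher in females, and these 2 of the 5 tested genes compare with 3.06% of 11468 genes called and 2.46% called higher in females. *Tnf* lay between 6.69 and 8.20 in the 9 females (median 7.51) and between 5.94 and 7.03 in the 9 males (median 6.50). In Ahr-KO and in Ahrr-KO all 3 females were above all 3 males, and in WT female F1 (6.69) was below male M1 (6.97). Males were lower in *Tnf* by -0.87 ± 0.18 (SE, adjusted p = 0.0129 by limma), and all 9 males were below the female mean. *Il6* lay between 7.12 and 11.19 in females (median 9.02) and between 6.56 and 8.70 in males (median 7.74), and the sexes overlapped. Males were lower in *Il6* by -1.31 ± 0.34 (SE, adjusted p = 0.0382 by limma), but 10 of the 18 samples each took the call away when left out (WT F2 and M3, Ahr-KO F1, F2, M1, M2 and M3, and Ahrr-KO F1, M1 and M3, adjusted p up to 0.0919). *Csf1* differed by -0.70 ± 0.22 (adjusted p = 0.0829 by limma) and was called without WT F1 (adjusted p = 0.0401), WT M1 (0.0174) or Ahrr-KO F3 (0.0210). *Il4* (-0.26) and *Il16* (-0.28, male minus female) were not called.

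Whether the genotype difference was another in males than in females was tested with an interaction term in WT and Ahr-KO, which called 0% of 11346 genes and none of the 5 by limma. At an unadjusted p below 0.05 there were 533 genes, *Il4* and *Csf1* among them, and voom called 0. *Il4* had means of 8.66 in WT males and 8.95 in Ahr-KO males, and of 8.56 in WT females and 9.46 in Ahr-KO females (n = 3 each), an interaction of -0.60 ± 0.22 (SE, unadjusted p = 0.0161, adjusted p = 0.954). *Csf1* had means of 10.47 and 8.84 in males and of 10.71 and 9.87 in females, an interaction of -0.80 ± 0.36 (SE, adjusted p = 0.954 by limma). These interactions did not pass the correction.

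Over the 18 samples Pearson's r between *Il6* and *Tnf* was 0.54, and 0.78 after the mean of each genotype and sex was subtracted. The points share genotype, sex, library and depth, and r describes these samples only, out of 10 pairs of genes looked at. Before the subtraction r was higher for *Csf1* and *Tnf* (0.68), *Il4* and *Il6* (0.67) and *Il4* and *Il16* (0.55), and after it these were 0.52, 0.34 and 0.45. WT F2, Ahr-KO F2, Ahr-KO F1 and Ahrr-KO F1 were the highest in *Il6*, and WT F2, Ahr-KO F2 and Ahrr-KO F1 were the highest in *Tnf*. In 3 of these samples the mast cell markers also had their highest sums within the genotype: 538 normalized counts in Ahr-KO F2, 179 in WT F2 and 215 in Ahrr-KO F1. In each of these 3 samples only 2 of the 9 mast cell genes had a count, and in Ahr-KO F2 *Kit* alone had 519 normalized counts. *Kit* was the most abundant gene of that list and was higher in females (195 against 65.9 normalized counts), a call lost in 6 of 24 alternative fits. Of the other mast cell genes, *Mcpt1* reached 84.6, *Mcpt2* 30.2 and *Cma1* 14.2 normalized counts, all in Ahrr-KO M1, which was not among these samples. *Cpa3* reached 26.8 in Ahr-KO F1, and *Tpsb2* and *Fcer1a* at most 5.05 and 2.83 in any sample. *Mcpt1* had a mean of 2.06 in WT, 0.913 in Ahr-KO and 25.5 in Ahrr-KO. Whether mast cells had a part in the *Il6* and *Tnf* values was not tested. *Il4* and *Csf1* had an r of -0.06 over the 18 samples and of 0.67 after the subtraction.

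**Figure D4:**
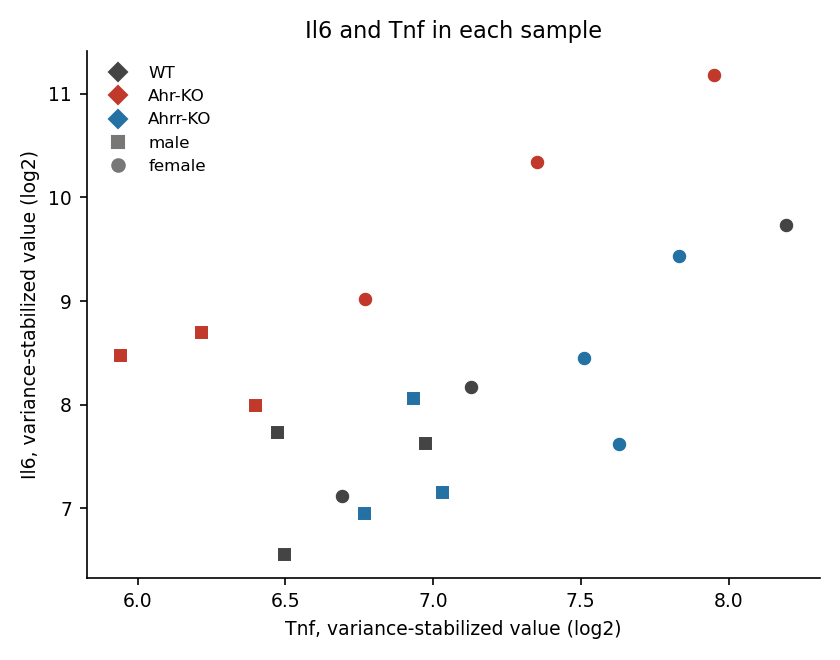
*Il6* against *Tnf* in each sample (variance-stabilized values, log2, on both axes, which do not start at 0), coloured by genotype, with squares for males and circles for females. Ahr-KO F2 (7.95 for *Tnf*, 11.19 for *Il6*) and WT F2 (8.20 and 9.73) lie at the upper right, and the males lie at 7.03 or below for *Tnf*.

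The genes most like the members called between genotypes over the 18 samples, by Pearson's r among 11468 genes, were as follows. *Tnf*, which was called between the sexes, was not looked at in this way. For *Il4* they were *Fermt3* (r = 0.94), which encodes the integrin activator kindlin-3, *Man2b1* (0.94), a lysosomal mannosidase, and *Ypel3* (0.93). For *Csf1* they were *Ptafr* (0.95), the receptor of platelet-activating factor, *Hif1a* (0.94), a transcription factor of the response to low oxygen, and *Irak2* (0.94), a kinase of Toll-like and IL-1 receptor signaling. For *Il6* they were *Asph* (0.92), *Tec* (0.92), a tyrosine kinase, and *Sfpq* (0.92), an RNA-binding protein. *Ptafr*, *Hif1a* and *Irak2* had means of 13.32, 11.92 and 10.26 in WT and of 12.30, 11.08 and 9.31 in Ahr-KO, on the log2 scale. These genes were picked for likeness to *Csf1* with genotype left in, so their lower means in Ahr-KO are not a separate result.

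Among the receptors of these cytokines, the clearest difference was in the beta chain shared by the receptors of IL-5, GM-CSF and IL-3. Of 17 receptor genes 16 were tested between WT and Ahr-KO. In Ahr-KO 2 were called higher and 2 lower, and the median difference was 0.02, where that of all genes was -0.00. *Csf2rb* was lower in all 6 Ahr-KO samples than in any WT sample, at 2273 against 6321 normalized counts (group means), a difference of -1.45 ± 0.12 (SE, adjusted p = 1.39e-06 by limma). Its close relative *Csf2rb2* was at 626 against 2273 normalized counts and differed by -1.78 ± 0.15 (adjusted p = 1.31e-06 by limma). The 2 genes are near-identical copies, so reads may have been split between them and the values of each are uncertain. *Il13ra1*, the chain that joins the IL-4 receptor to bind IL-13 or IL-4, was higher in Ahr-KO without overlap (616 against 316 normalized counts, 0.85 ± 0.11, adjusted p = 0.000115). *Csf1r*, the receptor of CSF1, was also higher (866 against 595 normalized counts, 0.49 ± 0.10, adjusted p = 0.00693 by limma), with groups that overlapped. The ligand *Csf1* and its receptor *Csf1r* thus moved in opposite directions. *Il4ra* (-0.30, adjusted p = 0.137) and *Il5ra* (0.35, adjusted p = 0.179 by limma) were not called. All 4 calls held in each of the 12 fits that left out 1 sample.

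**Figure D5:**
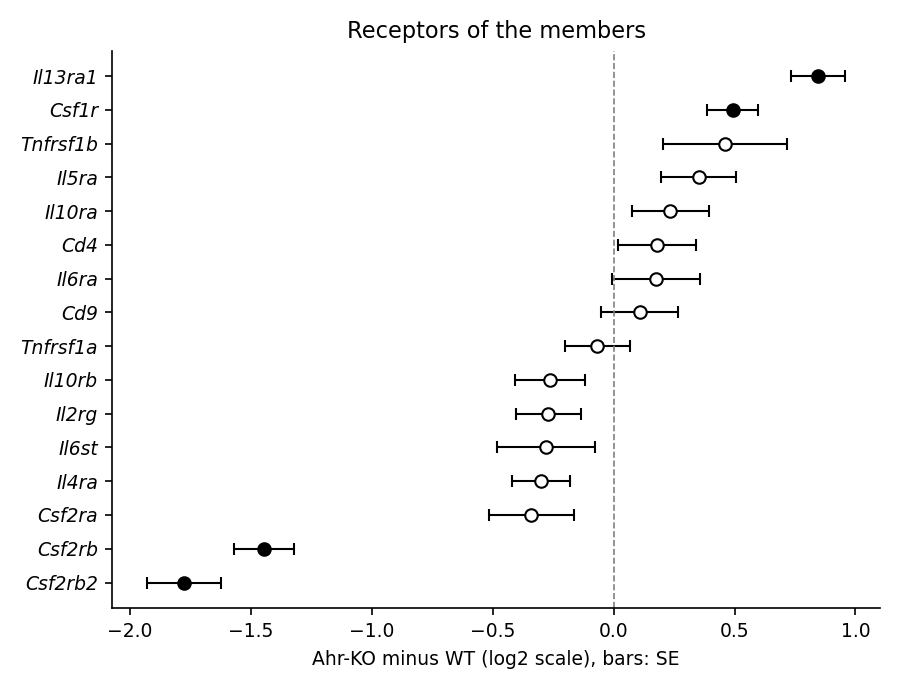
Difference between Ahr-KO and WT (horizontal axis, log2 scale, Ahr-KO minus WT) of the 16 receptor genes tested, with SE from limma as bars; filled circles were called at an adjusted p below 0.05. *Csf2rb2* (-1.78) and *Csf2rb* (-1.45) lie far to the left, and *Il13ra1* (0.85) is the highest of the list.

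Against the samples labelled Ahrr-KO, 2 of 16 receptor genes were called higher in Ahr-KO, *Il5ra* (0.75 ± 0.19) and *Il13ra1* (0.75 ± 0.12), and 4 were lower, *Csf2rb2* (-1.72 ± 0.19), *Csf2rb* (-1.28 ± 0.19), *Il6st* (-0.77 ± 0.23) and *Il6ra* (-0.66 ± 0.20, all with SE). The calls of *Il6st* and *Il6ra*, the chains of the IL-6 receptor, were lost in 10 and 12 of 21 alternative fits. None of the 16 was called between Ahrr-KO and WT. Between the sexes, *Tnfrsf1b* (-0.91 ± 0.20), *Il10ra* (-0.75 ± 0.15) and *Il10rb* (-0.48 ± 0.12, male minus female, SE) were higher in females, with the call of *Il10rb* lost in 12 of 25 alternative fits, and no receptor gene was called higher in males.

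Of the genes whose products cleave or release these cytokines, 9 of 10 in the table were tested between WT and Ahr-KO, with a median difference of 0.16. *Adam17*, the sheddase of TNF and of membrane-bound CSF1, was higher in Ahr-KO (0.49 ± 0.14, adjusted p = 0.0423 by limma), a call that was kept in only 3 of the 12 fits without 1 sample (adjusted p 0.0187 to 0.111). Against the samples labelled Ahrr-KO, *Adam17* was higher in Ahr-KO as well (0.77 ± 0.11, SE). *Vamp2*, a vesicle protein of granule release, was higher in females (-0.65 ± 0.13, male minus female). None of the 9 was called between Ahrr-KO and WT.

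Of 18 genes of transcription factors that act on type 2 cytokine genes, 17 were tested, and *Nfatc2* was called higher in Ahr-KO than in WT (425 against 265 normalized counts, 0.58 ± 0.12, SE, adjusted p = 0.00451 by limma), without overlap, and none was called lower. The median difference was 0.02. *Gata1* (7.82 in Ahr-KO and 7.59 in WT) and *Stat6* (10.37 and 10.35) were not called, and *Gata3* had 12 counts over all 18 samples. Against the samples labelled Ahrr-KO, *Nfatc2* (0.61 ± 0.16) was higher and *Maf* (-0.87 ± 0.25, SE) lower in Ahr-KO, the latter call being lost in 8 of 21 alternative fits, and none was called between Ahrr-KO and WT. *Gata2* (-0.83 ± 0.16) and *Bhlhe40* (-0.64 ± 0.16, male minus female) were higher in females, and the call of *Bhlhe40* was lost in 14 of 25 alternative fits.

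Many cytokine mRNAs carry AU-rich elements and are short-lived, and the genes of proteins that bind or decay such mRNAs were looked at as a list of 15, all tested. In Ahr-KO against WT, *Zfp36l2* was higher without overlap (1528 against 870 normalized counts, 0.78 ± 0.12, SE, adjusted p = 0.000670 by limma). *Hnrnpd*, which encodes AUF1, was lower (-0.37 ± 0.10, adjusted p = 0.0335), a call kept in 3 of the 12 fits without 1 sample. The median difference of the list was -0.02. Against the samples labelled Ahrr-KO, *Zc3h12d* was lower in Ahr-KO (-0.64 ± 0.17, lost in 6 of 21 alternative fits), and none was called between Ahrr-KO and WT. *Zc3h12a*, the nuclease regnase-1, was higher in females (-0.56 ± 0.15, male minus female), a call lost in 14 of 24 alternative fits.

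Of 14 genes known to respond to IL-4 or IL-13, 7 were tested between WT and Ahr-KO, with a median difference of 0.06. *Alox15*, the 12/15-lipoxygenase that is also an eosinophil marker, was higher in Ahr-KO (24919 against 16772 normalized counts, 0.58 ± 0.15, SE, adjusted p = 0.0230 by limma), and *Pdcd1lg2*, which encodes PD-L2, was lower (39.6 against 94.0 normalized counts, -0.65 ± 0.17, adjusted p = 0.0282). Each call was kept in 7 of the 12 fits without 1 sample. *Retnla* (0.21) and *Mrc1* (0.06) were not called. Between Ahr-KO and Ahrr-KO, *Alox15* (0.79 ± 0.24) and *Pdcd1lg2* (-0.58 ± 0.16) differed in the same directions, with the calls lost in 9 of 22 and 6 of 21 alternative fits, and none was called between Ahrr-KO and WT. *Cish* (-0.87 ± 0.19) and *Pdcd1lg2* (-0.59 ± 0.15, male minus female) were higher in females, and the call of *Pdcd1lg2* was lost in 12 of 24 alternative fits.

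Most other interleukin genes fell below the minimum mean. Of 25 further cytokine genes, 4 passed the minimum mean between WT and Ahr-KO, *Osm*, *Il15*, *Il27* and *Tgfb1*, and none was called, with *Il27* the largest of them (0.25 ± 0.16, SE, adjusted p = 0.368 by limma) and a median of 0.19. *Il3* and *Ifng* had 3 and 4 counts over all 18 samples. In the comparison with Ahrr-KO 6 were tested. *Il27* was higher in Ahr-KO (128 against 67.5 normalized counts, 0.65 ± 0.15, SE, adjusted p = 0.0125 by limma), and *Areg*, which encodes amphiregulin, was lower without overlap (9.05 against 56.1 normalized counts, -0.97 ± 0.22, adjusted p = 0.0127). *Osm* (-0.72 ± 0.20) and *Il27* (-0.51 ± 0.14, male minus female) were higher in females, calls that were lost in 19 of 25 and 18 of 24 alternative fits, and no gene of the list was called between Ahrr-KO and WT.

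*Il4*, *Il13*, *Il5* and *Csf2* lie in the type 2 cytokine region of chromosome 11, with *Il13* and *Il5* 86.1 kb and *Il5* and *Csf2* 522.2 kb apart (GRCm38). Of 9 other genes of that region, 6 were tested between WT and Ahr-KO, with a median difference of 0.01. *Rad50*, which holds the locus control region of the cytokine genes, was at 10.05 in Ahr-KO and 9.97 in WT (0.08 ± 0.10, SE, adjusted p = 0.670 by limma), and *Irf1* (-0.32, adjusted p = 0.185) and *Kif3a* (0.07) were not called either. *Pdlim4* was higher in Ahr-KO without overlap (94.6 against 35.7 normalized counts, 0.79 ± 0.13, adjusted p = 0.00108). Relative to the Ahrr-KO group, *Pdlim4* (0.81 ± 0.12) and *Kif3a* (0.64 ± 0.20, SE) were higher in Ahr-KO, and the call of *Kif3a* was lost in 10 of 21 alternative fits. None of the 6 was called between Ahrr-KO and WT or between the sexes.

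Markers of other cells differed between the genotypes as well and are given beside these results. The 9 eosinophil markers summed to 33475 ± 4995 normalized counts in WT, 43696 ± 4074 in Ahr-KO and 29332 ± 9760 in Ahrr-KO (SD, n = 6), mostly from *Alox15*. *Prg2*, the major basic protein of the granules, was higher in Ahr-KO than in WT without overlap (group means 9.33 against 7.03, 2.30 ± 0.17, SE, adjusted p = 3.47e-07 by limma). *Il4* was higher in the same genotype as these markers. The 5 markers of basophils, which also make *Il4*, summed to 2.37 to 51.6 normalized counts per sample in WT (median 8.31), 9.11 to 47.0 in Ahr-KO (median 33.4) and 7.52 to 26.8 in Ahrr-KO (median 14.6), with WT F3 the highest. *Cd200r3* had a mean of 3.55 in WT and 16.2 in Ahr-KO, where *Il4* was higher too, *Cpa3* of 9.01 and 15.1, and *Mcpt8* of 1.03 and 0.157. The 9 mast cell markers summed to 104 ± 47.6 in WT, 206 ± 194 in Ahr-KO and 175 ± 53.9 in Ahrr-KO. Most of each sum came from *Kit*, and *Mcpt4* and *Fcer1a* were at 0 in WT. The 12 markers of T cells and innate lymphocytes summed to 100 ± 82.3, 73.7 ± 36.4 and 132 ± 44.5 normalized counts in the same order, and WT F3 was the highest sample (260). No basophil marker was tested, and of the other 2 lists the 1 gene tested, *Kit* (0.41) and *Cd4* (0.18, Ahr-KO minus WT), was not called.

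The 11 markers of macrophages and dendritic cells, which depend on or make several of these cytokines, summed to 2674 ± 799 normalized counts in WT, 3204 ± 2038 in Ahr-KO and 4904 ± 2759 in Ahrr-KO (SD, n = 6), with *Cd74* the most abundant. *Csf1r* was the 1 gene of 8 tested that was called between WT and Ahr-KO, while *C1qb* (79.8 in Ahr-KO and 55.9 in WT) was not. *H2-Aa* and *H2-Ab1* were higher in males (1.48 ± 0.35 and 1.34 ± 0.35, SE), the sex with lower *Il6* and *Tnf*, and these calls were lost in 12 and 15 of 25 alternative fits. Of the 5 neutrophil markers tested between the sexes, *Ltf* was higher in females, as *Il6* and *Tnf* were (-0.84 ± 0.19, male minus female, SE), a call lost in 1 of 24 alternative fits, without both F3 libraries (adjusted p = 0.0504 by limma). The 8 epithelial markers summed to 10340 ± 4831 in WT, 5898 ± 1363 in Ahr-KO and 17712 ± 10619 in Ahrr-KO, with *Muc2* on top and called lower in Ahr-KO (-1.12 ± 0.20, adjusted p = 0.00174 by limma), a call lost with all 18 samples in the fit (0.201). The 8 markers of fibroblasts and endothelial cells summed to 3273 ± 428, 2101 ± 173 and 3122 ± 519 normalized counts, mostly from *Pecam1*. *Pecam1* was lower in Ahr-KO (2021 against 3169 normalized counts in WT, -0.63 ± 0.10, adjusted p = 0.00116 by limma). The endothelial genes *Cdh5* and *Kdr* had means of only 18.9 and 22.3 in WT and of 14.4 and 10.2 in Ahr-KO. The sums thus followed *Pecam1* and say little about fibroblasts or endothelial cells. Fibroblast genes had higher means in Ahrr-KO than in WT, with *Dcn* at 149 against 13.0, *Col1a2* at 94.5 against 17.7 and *Col1a1* at 88.2 against 25.8. All 3 were highest in the single sample Ahrr-KO M3, at 497, 220 and 231 normalized counts, which raises these means. The median difference of the 6 fibroblast and endothelial genes tested between Ahrr-KO and WT was 0.65, with none called. The 7 neutrophil markers summed to 832 ± 133, 1478 ± 913 and 2577 ± 1144, with *Cxcr2* higher in Ahr-KO (0.65 ± 0.16) and *S100a8* (2.06 ± 0.22) and *S100a9* (2.10 ± 0.19) higher in Ahrr-KO than in WT. The 6 markers of B and plasma cells summed to 229 to 1775 normalized counts per sample in WT, 96.1 to 740 in Ahr-KO and 333 to 6045 in Ahrr-KO, mostly from *Jchain*. Their part in the cytokine values was not tested.

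Compared with Ahrr-KO samples, markers of several other cells were called as well. Lower in Ahr-KO were *Jchain* (-3.20 ± 0.66), *S100a8* (-1.73 ± 0.38), *S100a9* (-1.69 ± 0.30), *C1qb* (-1.06 ± 0.33), *Col1a2* (-1.09 ± 0.32) and *Cdh5* (-0.70 ± 0.20, all with SE), and 4 of 8 epithelial markers with *Lgals4* (-1.18 ± 0.32) first. Of these calls, that of *C1qb* was lost in 15, *Col1a2* in 11 and *Cdh5* in 9 of 21 alternative fits. Of the 4 epithelial calls, that of *Cdh1* was lost in 11, *Lgals4* in 8, *Epcam* in 2 and *Krt8* in 1 of 22. Higher in Ahr-KO were 4 of 5 eosinophil markers tested, *Prg2* (2.07 ± 0.21), *Alox15*, *Il5ra* and *Siglecf* (0.72 ± 0.18). *Il4*, with 0.80 on the same scale, was within the range of these eosinophil markers, and the part of the cell mixture in its difference was not tested.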

How the data were processed

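RNA of sorted eosinophils was sequenced in 18 samples as single-end libraries with a read length of 75 bp or more, from RNA with an integrity number of at least 7. According to the methods and the submitters' processing notes, the authors aligned the reads to GRCm38 (Ensembl release 86) with nf-core/rnaseq, with STAR 2.5.2 and RSEM 1.3.0, and used DESeq2 in R 4.0.3. The deposited values are log2-scale variance-stabilized expression made by the authors from counts. Inverting this transformation here returned whole numbers throughout (100% within a tolerance of 0.0001, largest deviation 3.8e-08), and these counts served for depth, normalized counts and count-based alternatives.

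Each gene was fitted on the deposited values with limma 3.58.1 in R 4.3.3 (linear model with a mean-variance trend, sex as covariate, only the samples compared), over genes with a mean at least 1 above the lowest value, with Benjamini-Hochberg adjustment and a threshold of 0.05. The fits were tested on simulated data. Males and females were compared with genotype as covariate. Differences are coded Ahr-KO minus WT, Ahrr-KO minus WT, Ahr-KO minus Ahrr-KO and male minus female. The lowest chi-square per degree of freedom between samples of a group was 7.82, so no library was counted as a repeat of another. Exon lengths came from GENCODE and promoter windows from RefSeq (GRCm38.p6), and all 9 genes were matched by symbol and ID. The genes and lists were chosen with earlier results of these data known. *Vamp7*, *Tpsab1* and *Prss34* were not matched. Alternatives were no minimum mean, a stricter one of 3, centring on the median, quantile normalization, log2(count + 1), voom, the replicate number as a block, a model without sex, a joint fit of all 18 samples, leaving out each sample, and, chosen after seeing the data, leaving out both F3 libraries that stood apart and leaving out each sample in the comparison of the sexes. Tables were made in Python 3.11.15 (pandas 2.3.3, numpy 2.4.6), 95% intervals with scipy 1.17.1, and plots with matplotlib 3.10.9.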

Additional observations from a re-analysis of the deposited data

Results flagged for a closer look

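*Il4* in WT F1 was far below the other 5 WT samples, at 8.35 against a WT median of 8.64 on the log2 scale, with a gap to the nearest sample that took up 0.725 of the range of the 6 samples. The summed eosinophil markers were lowest (24866 normalized counts) and the summed epithelial markers highest (19485) of WT in this sample, and their part in the value was not tested. It was the 1 such sample among the 15 combinations of gene and genotype looked at (5 genes in 3 genotypes), and chance gives about 1 in 20. For these 5 genes the difference between Ahr-KO and WT did not pass the correction for an interaction with sex, which was not tested for Ahrr-KO.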

How the results depend on the processing

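The 3 calls between WT and Ahr-KO numbered 2 or 3 with any 1 of 12 samples left out, and *Il4* and *Csf1* kept direction and call in all of those fits. Of the 22 alternatives for *Il6* there, 13 kept the call and 9 did not, all with the same direction. The count of genes called between WT and Ahr-KO, 1003, was 553 with all 18 samples in the fit, 586 without the F3 libraries of WT and Ahr-KO that stood apart, and 623 to 1124 with 1 sample left out. Between WT and Ahrr-KO the 9 calls became 4 without a minimum mean, centred, with log2(count + 1) or with voom, 5 with the stricter minimum or quantile normalization, 14 with all 18 samples, and 4 to 25 with 1 sample left out, and none of the cytokine genes was called in any of these. Between Ahr-KO and Ahrr-KO the 1708 calls became 828 with the stricter minimum, 994 without sex and 818 to 2574 with 1 sample left out, and the 3 called cytokine genes became 1 without sex and 1 to 3 with 1 sample left out. Between the sexes the 351 calls became 163 without a minimum mean and 142 to 733 with 1 sample left out, and the 2 called cytokine genes became 1 without a minimum mean, 1 with the stricter minimum, below which *Tnf* was not tested, and 1 to 3 with 1 sample left out. Fewer or more genes tested and fewer samples are part of these alternatives, and beyond that the cause was not tested.

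Small differences that were not called changed sign. *Il16* in Ahr-KO against WT (0.02) lay between -0.0315 (without Ahr-KO F2) and 0.0890 (without Ahr-KO F1) with 1 sample left out and at -0.00168 without both F3 libraries. In Ahrr-KO against WT, *Il6* (0.12) lay between -0.15 and 0.43 and *Csf1* (-0.17) between -0.34 and 0.0226, and the interaction of *Il16* (-0.09) lay between -0.25 and 0.0171, each with 1 sample left out. Of the genes called between Ahr-KO and Ahrr-KO 785 were higher in Ahr-KO and 923 in Ahrr-KO, but 981 and 827 after centring, 1029 and 819 after quantile normalization, 500 and 328 with the stricter minimum and 549 and 445 without sex. No called cytokine gene changed its direction under any alternative. The median difference of all genes tested stayed within 0.1 of 0 on the log2 scale in the alternatives other than leaving out each sample, for which it was not computed.

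The replicate numbers did not pair the samples: same-numbered samples of 2 genotypes had deviations that correlated between -0.592 and 0.473. With the number as a replicate block, 918 genes were called between WT and Ahr-KO, 4 between WT and Ahrr-KO and 1946 between Ahr-KO and Ahrr-KO, and the called cytokine genes numbered 3, 0 and 4, with *Tnf* now called between Ahr-KO and Ahrr-KO (adjusted p = 0.0462 by limma). *Tnf* was also called there on log2(count + 1) (adjusted p = 0.0465).

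Depth limits the 4 genes with few counts most, above all in WT, which had the lowest median depth (6022409.5 counts against 9647589.5 in Ahr-KO). The values measure mRNA of sorted cells and not cytokine protein or its release. The Ahr-KO and WT mice were not littermates, markers of other cells differed between the groups, and the knockout of *Ahrr* could not be checked.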
